A study of Mus musculus with 18 samples.

Results

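The libraries compared here were 4 malignant peripheral nerve sheath tumours (MPNST) and 6 plexiform neurofibromas, 10 of the 18 mouse RNA-seq libraries of the study. The 4 tumours were chosen by their measured levels of 2 genes: of 6 MPNST libraries, a library was kept if it held fewer than 1000 CPM (estimated counts scaled to the library total) of the salivary gland gene Bpifa2 and fewer than 100 CPM of Th, which encodes the catecholamine enzyme tyrosine hydroxylase. MPNST libraries 1, 3, 4 and 5 passed. Library 2, which held 235222 CPM of Bpifa2, and library 6, which held 1736 CPM of Th, were left out. The highest values among the kept libraries were well below the limits, 179 CPM of Bpifa2 in MPNST 5 and 0.77 CPM of Th in MPNST 3. The limits did not remove all Bpifa2. It measured 17.4, 0.672, 3.91 and 179 CPM in MPNST 1, 3, 4 and 5, and at most 3.77 CPM in neurofibroma. All 6 neurofibroma libraries were used.

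Every MPNST animal had the genotype Nf1 flox/flox Arf flox/flox with a PostnCre transgene, in which the promoter of Postn drives the recombinase. The neurofibromas were trigeminal nerves of Nf1 flox/flox PostnCre+ mice, so both groups carried the floxed Nf1 and the Cre, and the floxed Arf was particular to the MPNST mice. Normal trigeminal nerves of Nf1 flox/flox PostnCre- mice, 6 libraries, serve below as a reference level only. The labels give no age for any group and no body site for the MPNST, and they say that the nerve and neurofibroma samples belong to another series. Malignancy, Arf status, body site and series therefore cannot be told apart in this comparison. The labels do not say that the libraries of a group came from separate animals, although the design text mentions 6 MPNST mice, so p-values measure the spread between libraries.

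Nf1 encodes neurofibromin, a GTPase-activating protein that switches RAS off, and Schwann lineage cells that lose it form neurofibromas. A plexiform neurofibroma grows within a nerve and keeps axons, Schwann cells, fibroblasts, mast cells and macrophages. An MPNST is a sarcoma that can arise from such a lesion, and loss of the CDKN2A locus, which encodes Ink4a and Arf, is known to accompany that step in patients.

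Library totals ran from 13885900 to 23292124 estimated counts in the MPNST and from 15308065 to 20056349 in the neurofibromas. Library total, mitochondrial percentage and the percentage taken by the top 10 genes were compared by two-sided exact permutation of the libraries, and none passed (lowest p = 0.0667, adjusted over 3 measures 0.2; 210 regroupings allow no p below 0.00476). The MPNST libraries resembled each other less than the neurofibromas did: Spearman correlations over 20926 genes were 0.856 to 0.943 among the former and 0.958 to 0.981 among the latter, and the biological coefficient of variation fitted within each group was 0.673 and 0.29. Single libraries stood apart in cell type markers. A skeletal muscle list of 23 genes reached a level, the mean of log2(CPM + 1) over its members, of 9.55 in MPNST 3 and 6.07 in neurofibroma 1, against 0.90 to 1.57 in the other 3 MPNST and 0.92 to 1.20 in the other 5 neurofibromas. An adipocyte list was high in MPNST 1 (6.05), MPNST 5 (5.32) and neurofibroma 1 (5.59). Lymphocyte genes were highest in MPNST 1, and MPNST 4 had the lowest Schwann cell and myelin levels. By the order of its headers, the deposited table falls into a first run of columns (MPNST 1 and 4 with neurofibromas 1 to 3) and a second (MPNST 3 and 5 with neurofibromas 4 to 6); no label says what a run is, and counts within a run are given below where they moved the larger of a list's counts by over 1.5 times. Below, MPNST values are given in the order of libraries 1, 3, 4 and 5, and neurofibroma values as the lowest, the median and the highest of 6 libraries.

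**Figure D1:**
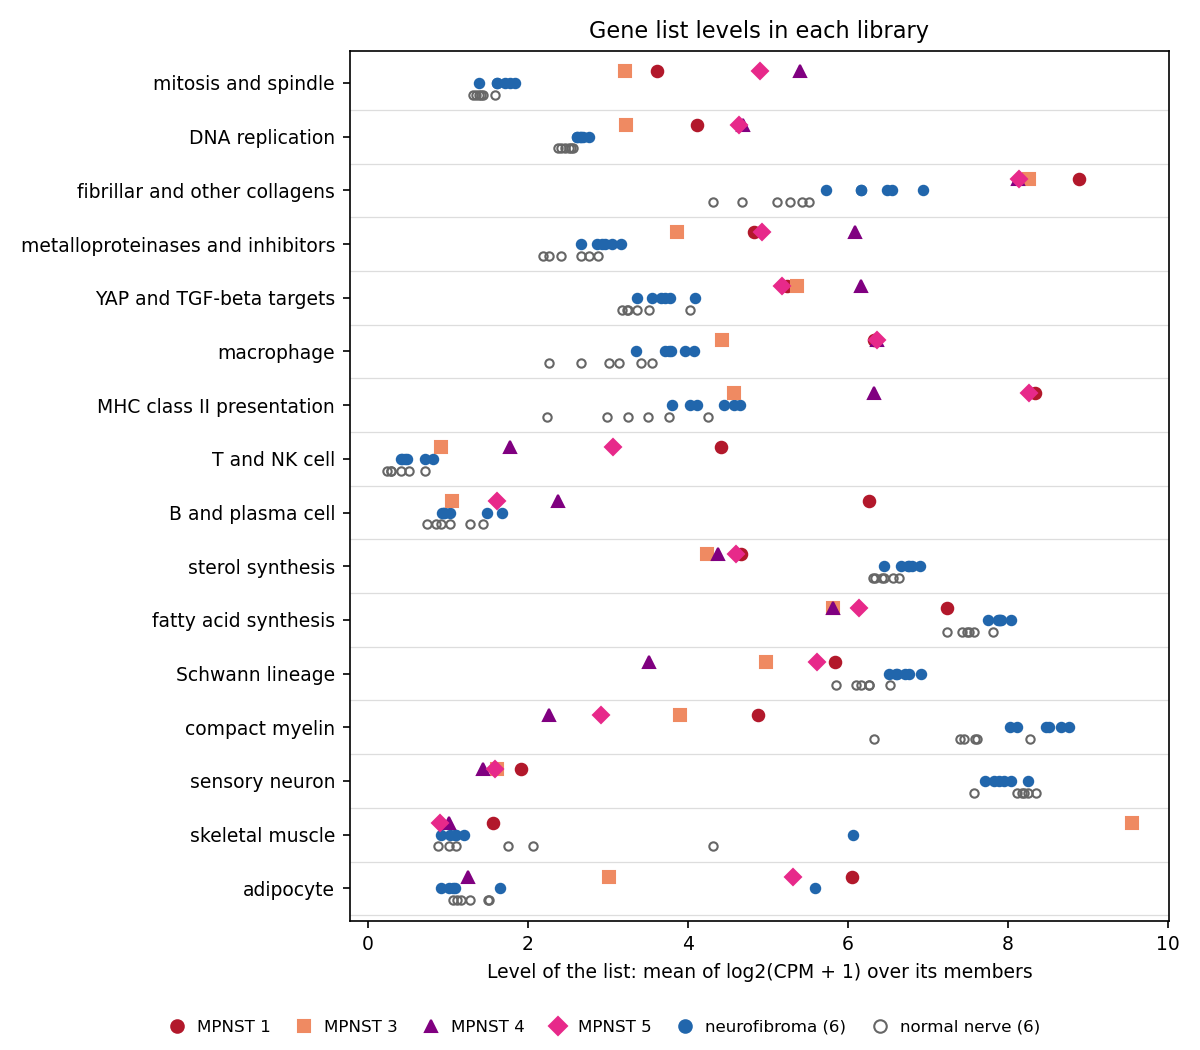
Level of 16 gene lists in each library, as the mean of log2(CPM + 1) over the members of a list (horizontal axis), with 1 symbol per library. The mitosis, DNA replication and collagen lists lie higher in all 4 MPNST libraries than in every neurofibroma, the sterol, Schwann, myelin and sensory neuron lists lie lower, and the skeletal muscle list is high in MPNST 3 and neurofibroma 1.

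Of 17280 genes tested with edgeR's quasi-likelihood test, 10234 (59.2%) differed at a Benjamini-Hochberg adjusted p below 0.05. Of the tested genes 30.7% (5306) were called higher in MPNST and 28.5% (4928) lower. These shares are the background for every count below, and the median log2 change over all genes was 0.075. At an absolute log2 change of at least 1, 7344 calls were left, 3705 higher and 3639 lower. Values of the 2 groups did not overlap for 7443 of the called genes. Among all 17280 genes, called or not, every MPNST lay above every neurofibroma for 3168 and below for 4426. Tested against a minimum log2 change of 1 (glmTreat), 5025 genes passed.

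**Figure D2:**
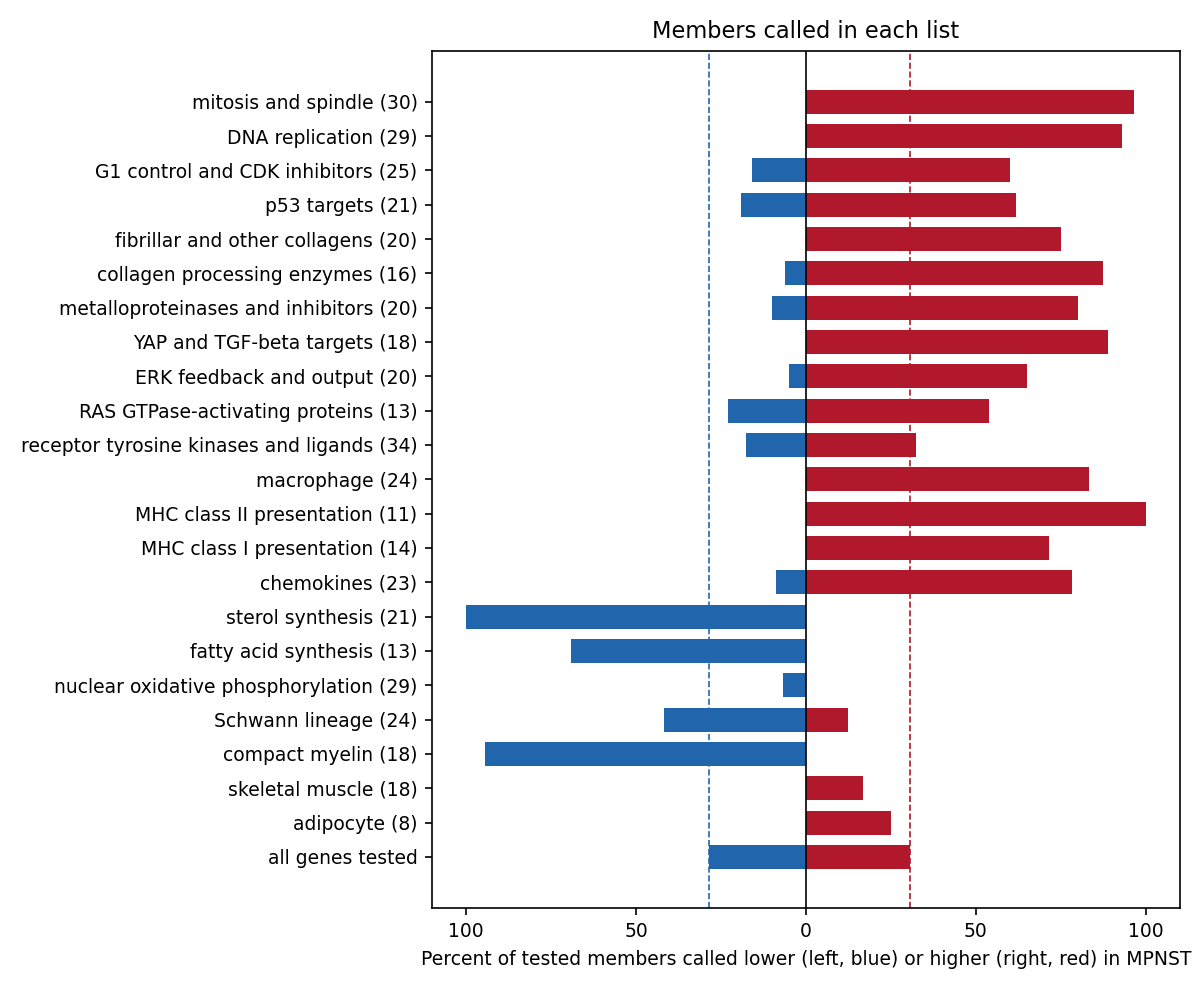
Percent of the tested members of each gene list called higher (right, red) or lower (left, blue) in MPNST, with the number of tested members in parentheses. The bottom bar and the dashed lines give all genes tested, 30.7% higher and 28.5% lower. The mitosis, DNA replication, collagen and macrophage lists extend to the right and the sterol synthesis and compact myelin lists to the left.

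Nf1 was lower in the MPNST, although it is floxed in both groups. Its values were 46.5, 52.2, 58.6 and 53.4 CPM in MPNST and 66.7, 82.1 and 91.2 CPM in neurofibroma, with no overlap. The log2 change was -0.62 (SE 0.13, adjusted p = 0.00193), and the normal nerves averaged 123.4 ± 32.5 CPM (SD, n = 6). With all 6 MPNST libraries the difference was -0.21 (adjusted p = 0.478). Cdkn2a, whose gene-level count sums the Ink4a and Arf transcripts, was not lower in MPNST. It held 10.7, 9.79, 692 and 11.3 CPM, against 3.55, 5.35 and 8.59 CPM in neurofibroma. Its rise of 4.996 (SE 1.20, adjusted p = 0.00469) came largely from MPNST 4 and was 1.09 (adjusted p = 0.00659) without that library. The neighbouring inhibitor gene Cdkn2b showed the same single library, with 18.1, 14.4, 299 and 24.9 CPM. Its rise of 3.02 (adjusted p = 0.00671) became 0.95 (adjusted p = 0.0047) without MPNST 4. Counts of a whole gene do not read the deleted exons, so neither Nf1 nor Cdkn2a checks a genotype. Postn, the matricellular protein whose promoter drives the Cre, rose from 83.3, 155 and 254 CPM to 4431, 3173, 1445 and 2193 CPM (log2 change 4.15, SE 0.42, adjusted p = 2.03e-05).

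Many of the largest rises among genes of at least 10 CPM without overlap differed widely among the tumours. Mmp3, which encodes the matrix-degrading enzyme stromelysin, measured 215, 7.72, 776 and 93.5 CPM and at most 0.228 CPM in neurofibroma. Its log2 change was 11.34 (SE 1.24, adjusted p = 3.26e-05), and 10.01 without MPNST 4. Tnfsf18, the ligand of the T cell receptor GITR, was at 0 in all 6 neurofibromas and 33.5, 0.88, 5.37 and 6.08 CPM in MPNST, at least 410-fold higher (floor of 3 counts over the neurofibroma group), or at least 147-fold without MPNST 1. Hmga2, a chromatin protein of embryonic mesenchyme, spanned 0.928, 13.9, 823 and 198 CPM. In neurofibroma it reached 0.815 CPM, so MPNST 1 lay barely above that group. Its rise was 9.07 (SE 1.52, adjusted p = 0.00054), and 7.31 without MPNST 4.

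MPNST 4 also set 3 further members of this group. Dnm3os, a noncoding RNA antisense to Dnm3 that is the precursor of a mesenchymal microRNA cluster, measured 25.0, 13.8, 393 and 8.72 CPM (rise 6.81, 4.18 without MPNST 4). Whether the counting used strand is not given in the sources used here, so reads of Dnm3 could be among them. Sema3a, an axon guidance ligand, measured 1.47, 1.52, 302 and 18.99 CPM (rise 6.66, 3.32 without MPNST 4). Cytip, a leukocyte adhesion regulator, measured 64.9, 2.15, 284 and 31.0 CPM (rise 6.68, 5.19 without MPNST 4). By contrast, Cilp, a cartilage and fibroblast matrix protein, was lowest in MPNST 4, at 1163, 848, 69.3 and 304 CPM against 1.70, 2.95 and 6.09 CPM (rise 7.57, SE 0.78, adjusted p = 2.35e-05). Ccl8, a monocyte-attracting chemokine, measured 102, 26.5, 23.1 and 204 CPM and at most 0.911 CPM in neurofibroma (rise 7.20, 6.40 without MPNST 5). Ear2, an eosinophil-associated ribonuclease whose family has near-identical members, measured 23.2, 5.76, 3.10 and 76.8 CPM (rise 8.05, 6.73 without MPNST 5), and its estimated count is uncertain for that reason.

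**Figure D3:**
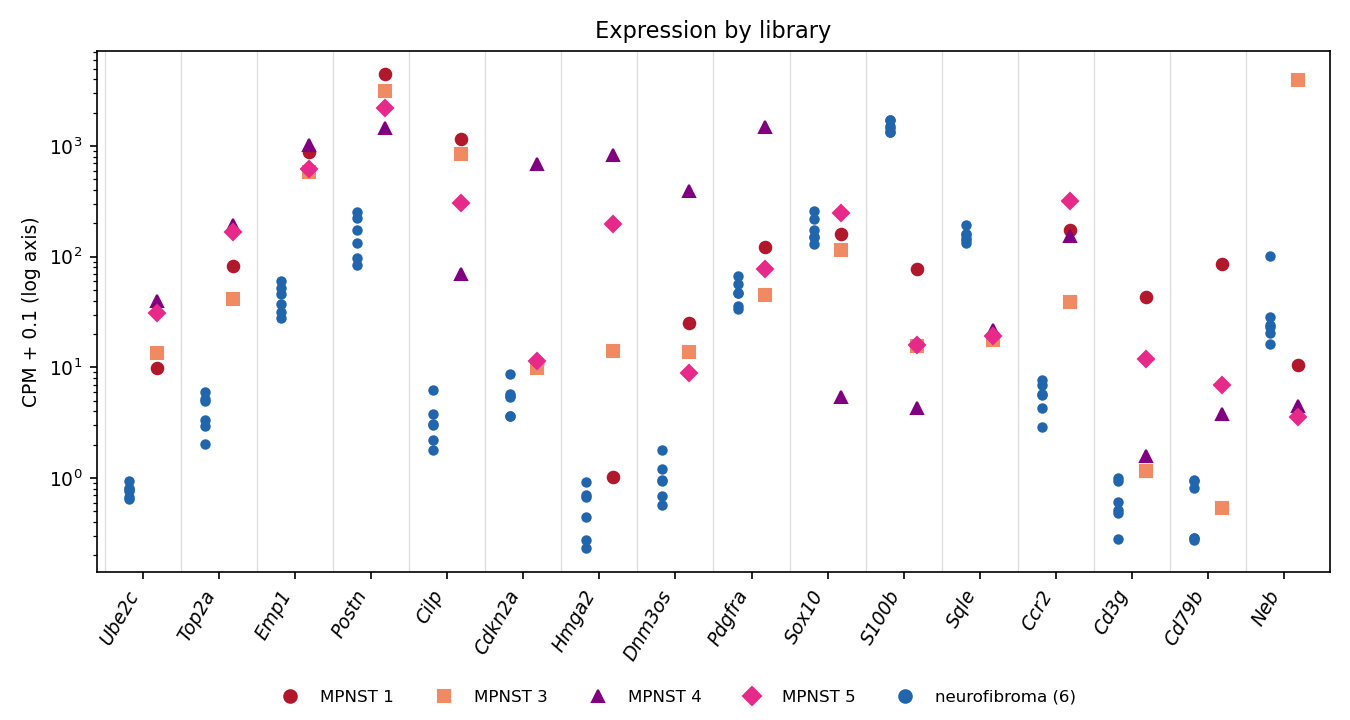
CPM plus 0.1 (log axis) of 16 genes in each library, with MPNST symbols to the right of the 6 neurofibroma points. Ube2c, Top2a, Emp1, Postn, Cilp, Sqle and Ccr2 separate the groups in every library, MPNST 4 stands alone in Cdkn2a, Dnm3os, Pdgfra and Sox10, and MPNST 3 stands alone in Neb.

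The largest falls were neuronal genes. Gpr26, an orphan brain receptor, was at 0 in all 4 MPNST and 37.4, 44.1 and 52.0 CPM in neurofibroma, at least 1003-fold lower in MPNST. Srrm3, a neuronal splicing regulator, Actl6b, a neuronal chromatin remodelling subunit, Pou4f3, a sensory neuron transcription factor, and Clvs2 were likewise at 0 in the 4 MPNST, at least 539-fold, 468-fold, 450-fold and 236-fold lower. Oprm1, the mu opioid receptor, was at least 371-fold lower although its neurofibroma values ran from 3.67 to 41.8 CPM. The cold receptor Trpm8, the transcription factor Isl1, the phosphatase Ppef1 and the calcium buffer Calb2 had 0.107 CPM or less in every MPNST and 32.4 CPM or more in every neurofibroma. Of a list of 30 sensory neuron genes, 29 were called lower and none higher, with a median log2 change of -8.56, or -7.84 when the genes at 0 in MPNST are set to their bound. The list's level was 1.44 to 1.92 in MPNST, 7.72 to 8.25 in neurofibroma and 7.58 to 8.35 in normal nerve. Neuronal transcripts were thus present in trigeminal samples of both kinds. MPNST 6, left out for its Th, had a level of 4.44, so the neuronal calls depend on the choice of libraries and are given as a description. With all 6 MPNST, 21 of the 30 were called lower, and Isl1 was at -0.23 (adjusted p = 0.933). In bulk tissue, fewer cells of a type and less RNA per cell cannot be told apart.

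Genes of cell division were higher in the MPNST. Of 30 genes of mitosis and the spindle, 29 were called higher and none lower (background 30.7% higher), with a median log2 change of 3.34. The 30th, the checkpoint gene Mad2l1, had 30.7, 7.05, 122 and 46.3 CPM against 7.30, 23.9 and 29.9 CPM (1.28, adjusted p = 0.107; 1.63 and 0.025 without MPNST 3). Ube2c, the ubiquitin-conjugating enzyme of the anaphase-promoting complex, had 9.79, 13.5, 39.5 and 31.0 CPM in MPNST and 0.553, 0.678 and 0.849 CPM in neurofibroma. It rose by a log2 change of 5.07 (SE 0.38, adjusted p = 2.65e-06), with normal nerve at 0.695 ± 0.299 CPM (SD, n = 6). Top2a, the topoisomerase that untangles sister chromatids, rose from 1.93, 4.05 and 5.87 CPM to 81.5, 41.5, 194 and 169 CPM (4.89, SE 0.44, adjusted p = 9.42e-06). Among further members, chosen after their values were seen, Mki67, the Ki-67 proliferation antigen, rose by 4.20 and Cdk1, the mitotic kinase, by 4.78. The transcription factor Foxm1, which drives mitotic genes, rose by 3.12.

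The tumours were not alike in this. MPNST 4 had the highest value in 26 of the 30 mitosis genes and MPNST 5 in the other 4, while MPNST 3 was lowest in 23 and MPNST 1 in 7. The list's level was 3.62, 3.21, 5.40 and 4.90 in MPNST and 1.39 to 1.84 in neurofibroma, so that the lowest tumour still lay above every neurofibroma. Normal nerve ran from 1.32 to 1.59. For DNA replication, 27 of 29 tested genes were called higher and none lower, with a smaller median change of 1.67. Thymidylate synthase, Tyms, rose from 2.20, 3.61 and 4.23 CPM to 18.7, 14.02, 32.7 and 28.0 CPM (2.74, SE 0.24, adjusted p = 7.93e-06). The ribonucleotide reductase subunit gene Rrm2 had 12.3, 5.62, 25.8 and 22.5 CPM against at most 1.52 CPM (3.51, SE 0.34, adjusted p = 1.6e-05). Fen1 and Lig1, which process Okazaki fragments, did not pass (adjusted p = 0.462 and 0.113; 0.0122 and 0.0104 without MPNST 3). MPNST 3 was lowest in 27 of the 29. These counts held when any 1 library was left out: 29 or 30 mitosis genes were called higher in every such fit.

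Promoters of many of the mitosis genes share short runs of letters. The shares below follow from which genes the list holds, called or not, and are no result of the comparison. Genes of late cell cycle phases are known to carry the cell cycle genes homology region (CHR; TTTGAA or TTCGAA) and CCAAT boxes close to their start sites. RefSeq promoters (build GRCm38.p6, the window from 250 bases before to 50 bases after a start; the counts themselves refer to GRCm39) were found for 25 of the 30 mitosis genes. A gene counts if any of its start sites has the letters. A CHR on either strand lay in 19 of these 25 (76%). The share was 21.7% of all 27025 genes with a promoter, 16.7% of 12351 tested genes with one and 4 of 25 (16%) DNA replication genes. CHR and CCAAT box together were in 16 of 25 (64%), against 8.61% of all genes with a promoter. A match is a run of letters and not evidence of binding. The 250 bases before the start of the 3 genes below are shown because each rose without overlap and holds both motifs. Capitals mark CHR and CCAAT matches on either strand (CCAAT or its complement ATTGG; the run CCAATTGG in Ube2c is a pair of overlapping matches). Ube2c lies at chr2:164769679-164769928 on the plus strand, Top2a at chr11:99024190-99024439 on the minus strand and Cdk1 at chr10:69352913-69353162 on the minus strand.
Ube2c: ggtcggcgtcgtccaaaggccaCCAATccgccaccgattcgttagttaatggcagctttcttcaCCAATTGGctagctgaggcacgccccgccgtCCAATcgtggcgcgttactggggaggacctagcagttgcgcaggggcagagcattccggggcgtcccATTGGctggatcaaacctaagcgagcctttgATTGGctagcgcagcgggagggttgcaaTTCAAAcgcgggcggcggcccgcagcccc
Top2a: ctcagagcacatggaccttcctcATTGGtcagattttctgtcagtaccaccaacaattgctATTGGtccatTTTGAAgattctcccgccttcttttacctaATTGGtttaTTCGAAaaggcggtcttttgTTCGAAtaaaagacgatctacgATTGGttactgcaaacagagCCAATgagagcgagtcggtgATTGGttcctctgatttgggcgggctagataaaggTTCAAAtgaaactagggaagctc
Cdk1: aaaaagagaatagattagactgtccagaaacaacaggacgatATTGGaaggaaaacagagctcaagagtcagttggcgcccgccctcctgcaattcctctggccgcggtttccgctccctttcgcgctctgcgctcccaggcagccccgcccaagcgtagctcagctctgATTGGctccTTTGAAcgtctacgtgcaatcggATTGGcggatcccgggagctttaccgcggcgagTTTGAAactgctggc
Ube2c has its CHR letters from 29 to 24 bases before the start and Top2a has 4 such runs. Cdk1 has CHR letters at 71 to 66 and at 15 to 10 bases before its start, each downstream of a CCAAT box.

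In the control of the G1 phase, 15 of 25 genes were called higher and 4 lower, with a median of 1.26. Over all genes tested the shares were 30.7% higher and 28.5% lower, so only the higher count exceeded its background share. The kinase genes Cdk6 (12.3, 23.4 and 28.4 CPM in neurofibroma; 98.5, 69.4, 109 and 97.6 CPM in MPNST) and Cdk2 (4.70, 6.03 and 7.81 CPM; 33.1, 20.96, 46.1 and 63.1 CPM) rose by 2.12 and 2.70. Cyclin D1, Ccnd1, an output of RAS signalling, was at 512, 498, 768 and 661 CPM against 102, 192 and 248 CPM, and at 33.1 ± 14.2 CPM in normal nerve (rise 1.74, SE 0.27, adjusted p = 0.000338). Among the inhibitors, Cdkn2d fell from 42.1, 57.9 and 64.0 CPM to 17.9, 10.7, 10.5 and 14.2 CPM (-2.06, SE 0.19, adjusted p = 1.17e-05). Cdkn1a, the p53-responsive p21 gene, was called lower at -1.35 (adjusted p = 0.0448), but it had 87.7 CPM in MPNST 3 and overlapped the neurofibromas. Its call was lost on leaving out any library but MPNST 3 (adjusted p 0.0736 to 0.111), and without MPNST 3 it was -2.23 (adjusted p = 0.000682). Of 21 p53 target genes 13 were called higher and 4 lower, with 6 higher in the first column run alone and 8 in the second, and 2 lower without MPNST 4 or without neurofibroma 1 or 3. The p53 antagonist Mdm2 rose from 30.3, 35.0 and 40.8 CPM to 47.7, 65.2, 66.7 and 100.3 CPM (1.01, adjusted p = 0.000961), while Zmat3 fell by 1.38 (adjusted p = 2.24e-05).

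Genes of RAS output rose in most but not all cases. Of 20 ERK feedback and output genes, 13 were called higher and 1 lower, with a median of 1.64 against 0.075 for all genes. The lower count was 4 without MPNST 4 and in the second column run, and 0 when any other library was left out. Emp1, a membrane protein gene induced by growth factors, measured 885, 586, 1028 and 619 CPM in MPNST and 27.6, 41.7 and 60.2 CPM in neurofibroma (4.19, SE 0.25, adjusted p = 8.25e-07). The AP-1 subunit gene Junb rose by 2.45 (SE 0.26, adjusted p = 2.67e-05). Dusp6, the ERK phosphatase, had 103, 65.6, 339 and 133 CPM against 35.4, 45.5 and 49.8 CPM (1.84, SE 0.34, adjusted p = 0.00104). Spry4, another feedback inhibitor, did not pass, with 87.0 CPM in MPNST 4 and 11.8 to 18.8 CPM in the other 3 tumours, all below the neurofibromas (26.6 to 42.2 CPM). Without MPNST 4 it was called lower at -1.07 (adjusted p = 0.00207). Etv5, an ETS factor downstream of ERK, was called lower at -0.77 (adjusted p = 0.0339), and that call was lost without MPNST 1, 3 or 5 or without any 1 neurofibroma (adjusted p 0.0517 to 0.0936). MPNST 4 had the highest value in 15 of the 20 genes.

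Of 13 genes for RAS GTPase-activating proteins and their partners, 7 were called higher and 3 lower. Rasal2 fell along with Nf1, from 147, 196 and 224 CPM to 46.3, 30.8, 38.5 and 24.4 CPM (-2.43, SE 0.21, adjusted p = 6.93e-06), and Dab2ip fell by 0.62. Rasal1 and Rasal3 rose by 6.25 and 3.57, or by 5.24 and 2.70 without MPNST 1, which had the highest value of both (12.2 and 100.1 CPM). Rasal1 rose by 6.88 without neurofibroma 3. With all 6 MPNST libraries 2 of the 13 were called higher and 1 lower.

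Of 34 tested receptor tyrosine kinases and their ligands, 11 were called higher and 6 lower, shares near or below those of all genes (30.7% and 28.5%), and 7 and 3 in the first column run. Single members are given as examples. The neuregulin gene Nrg1, whose axonal product supports Schwann cells, fell from 98.1, 109 and 125 CPM to 0.701, 0.0486, 1.52 and 6.32 CPM (-5.73, SE 0.84, adjusted p = 0.000219; -7.13 without MPNST 5). Ereg, which encodes the EGF receptor ligand epiregulin, rose from at most 0.0585 CPM to 6.01, 3.79, 20.4 and 2.94 CPM (8.29, SE 0.84, adjusted p = 2.14e-05; 7.44 without MPNST 4), while Tgfa, another such ligand, fell by 4.19 (-4.78 without MPNST 1). Axl, the GAS6 receptor, had 459, 233, 917 and 538 CPM against 76.0 to 135 CPM (2.40, SE 0.30, adjusted p = 7.68e-05). Pdgfra, the PDGF receptor of fibroblasts and glial precursors, had 123, 45.4, 1497 and 78.1 CPM against 33.7, 47.0 and 67.1 CPM. Its rise of 3.11 was 0.83 (adjusted p = 0.0219) without MPNST 4. The neuregulin receptor gene Erbb3 was not called (-0.06, adjusted p = 0.947), with 6.19 CPM in MPNST 4 and 102 to 226 CPM in the other tumours.

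Matrix genes rose broadly. Of 20 collagen genes 15 were called higher and none lower, with a median of 2.38. Together the 20 genes made up 1.29% to 2.02% of all counts in MPNST and 0.157% to 0.371% in neurofibroma. Col5a2, a regulator of fibril diameter, had 809, 645, 869 and 496 CPM in MPNST and 92.2 to 165 CPM in neurofibroma (2.49, SE 0.22, adjusted p = 7.53e-06). The abundant interstitial collagen gene Col3a1 rose from 107, 218 and 413 CPM to 4549, 2288, 3908 and 2279 CPM (3.72, SE 0.36, adjusted p = 1.62e-05). Col11a1, Col14a1 and Col28a1 did not pass (adjusted p 0.141 to 0.503), although Col14a1 did without MPNST 4 (0.99, adjusted p = 0.0166) and Col28a1 without MPNST 5 (1.04, adjusted p = 0.000347). The list level was 8.13 to 8.89 in MPNST, 5.73 to 6.94 in neurofibroma and 4.32 to 5.52 in normal nerve. Of 16 collagen-processing genes, 14 were called higher. The crosslinking enzyme gene Loxl1 had 227, 103, 296 and 178 CPM against 4.21, 7.58 and 13.4 CPM (4.59, SE 0.33, adjusted p = 2.16e-06), and Loxl2 rose by 3.44 (SE 0.26, adjusted p = 3.4e-06). P4ha3, a prolyl hydroxylase subunit gene, was called lower at -1.06 (adjusted p = 0.00915; 0.0702 with limma-voom), and Plod3, a lysyl hydroxylase gene, was not called (0.35, adjusted p = 0.0851).

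Of 20 tested genes of metalloproteinases, the plasminogen activator system and their inhibitors, 16 were called higher and 2 lower, with a median of 3.04. Adamts12 was among the most even, at 33.2, 34.9, 68.3 and 27.2 CPM against 2.82, 3.41 and 3.58 CPM (3.63, SE 0.24, adjusted p = 1.45e-06). The inhibitor gene Timp1 rose from 2.20, 6.29 and 7.96 CPM to 96.9, 58.5, 132 and 53.9 CPM (3.92, SE 0.39, adjusted p = 1.9e-05), whereas Timp2 fell by 0.81 and Adamts5 by 1.51. Of 18 tested genes of TGF-beta signalling and YAP output, 16 were called higher and none lower, with a median of 2.16; with the first column run alone it was 10. Skil, a feedback inhibitor of SMADs, had 120, 70.4, 175 and 103 CPM against 17.2, 22.6 and 26.2 CPM (2.35, SE 0.20, adjusted p = 5.95e-06). Tgfb1, the ligand, rose from 5.79, 9.63 and 12.8 CPM to 85.7, 31.1, 74.0 and 81.0 CPM (2.81, SE 0.29, adjusted p = 2.31e-05). Ogn, which encodes the proteoglycan osteoglycin, went the other way, from 522, 691 and 728 CPM to 47.6, 66.9, 3.43 and 3.47 CPM (-4.34, adjusted p = 0.00232; -5.24 without MPNST 3). Apod, a lipocalin of endoneurial fibroblasts, fell by 2.48 (adjusted p = 0.000876).

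Sterol synthesis was lower as a whole. All 21 genes of the list, the pathway enzymes and their regulation with Insig1 and Srebf2 among them, were called lower (background 28.5% lower). Of these, 19 did not overlap (background 4426 of 17280 genes lower without overlap), and the 21 genes had a median log2 change of -2.23. They made up 0.0498% to 0.0677% of counts in MPNST and 0.258% to 0.349% in neurofibroma. Sqle, the squalene epoxidase and a rate-limiting step, had 19.2, 17.6, 21.8 and 19.3 CPM against 133, 153 and 192 CPM (-2.99, SE 0.14, adjusted p = 1.7e-07). The 4 tumours lay close together and far below every neurofibroma. Hmgcs1, the HMG-CoA synthase, had 98.5, 82.7, 47.8 and 85.9 CPM against 603, 840 and 1064 CPM (-3.38, SE 0.27, adjusted p = 4.47e-06), again without overlap. Smaller falls were in Mvk (-0.91) and Srebf2 (-1.19), and Mvk and Dhcr7 overlapped between groups.

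The sterol list level was 4.66, 4.24, 4.38 and 4.60 in MPNST. It spanned 6.45 to 6.90 in the neurofibromas and 6.32 to 6.64 in normal nerves. Myelinating Schwann cells and neurons are rich in sterol enzymes, and their markers moved with this list. The compact myelin level was 2.27 to 4.88 in MPNST and 8.03 to 8.76 in neurofibroma, and the Schwann level 3.51 to 5.84 and 6.51 to 6.92. Their part in the result was not tested. All 21 genes were called lower in every fit that left out 1 library, 20 in either column run alone and 17 against a minimum log2 change of 1. With all 6 MPNST 16 were.

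Fatty acid synthesis was less uniform, with 9 of 13 genes called lower. Scd2, the stearoyl-CoA desaturase of nerve, fell from 2315, 2622 and 2942 CPM to 636, 305, 348 and 345 CPM (-2.69, SE 0.23, adjusted p = 6.92e-06). Scd1, the adipose form, had 2064, 289, 44.9 and 660 CPM against 723, 770 and 1198 CPM and was not called (adjusted p = 0.848), and Fasn, the fatty acid synthase gene, was at -0.78 (adjusted p = 0.28) and at -2.07 (adjusted p = 0.000402) without MPNST 1. MPNST 1, which had the highest adipocyte level, had the highest value in 12 of the 13 genes; the part of fat cells in these values was not tested. Srebf1, the regulator of fatty acid genes, was at -0.06 (adjusted p = 0.801).

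RefSeq promoters were found for 15 of the 21 sterol genes, and all 15 held a CCAAT box on either strand. The share was 41.1% of all genes with a promoter and 42.5% of tested genes with one. The lists of mitosis and DNA replication, mostly called higher, had a CCAAT box in 18 of 25 (72%) and 16 of 25 (64%) genes. A core of the sterol regulatory element, TCACNCCAC on either strand, was in 1 of the 15, Hmgcs1, against 1.44% of all genes with a promoter. The 250 bases before the start of Hmgcs1, at chr13:119690101-119690350 on the plus strand, and of Nsdhl, a demethylation enzyme gene that fell by 2.37 (SE 0.11, adjusted p = 1.97e-07), at chrX:72918271-72918520 on the plus strand, show both cases, with CCAAT boxes and the element in capitals.
Hmgcs1: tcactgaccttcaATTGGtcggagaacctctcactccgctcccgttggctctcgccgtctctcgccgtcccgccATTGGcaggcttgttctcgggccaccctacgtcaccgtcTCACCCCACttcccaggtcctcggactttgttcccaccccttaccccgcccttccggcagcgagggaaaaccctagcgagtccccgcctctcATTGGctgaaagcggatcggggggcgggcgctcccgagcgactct
Nsdhl: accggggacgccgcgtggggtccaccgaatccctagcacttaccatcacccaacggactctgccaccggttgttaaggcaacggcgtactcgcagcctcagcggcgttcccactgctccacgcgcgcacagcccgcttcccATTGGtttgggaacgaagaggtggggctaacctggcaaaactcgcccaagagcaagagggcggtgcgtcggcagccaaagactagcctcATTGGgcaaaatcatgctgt
The element of Hmgcs1 lies from 137 to 129 bases before its start, between CCAAT boxes at 176 to 172 and 45 to 41 bases before it. Nsdhl has CCAAT boxes at 109 to 105 and at 20 to 16 bases before its start.

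**Figure D4:**
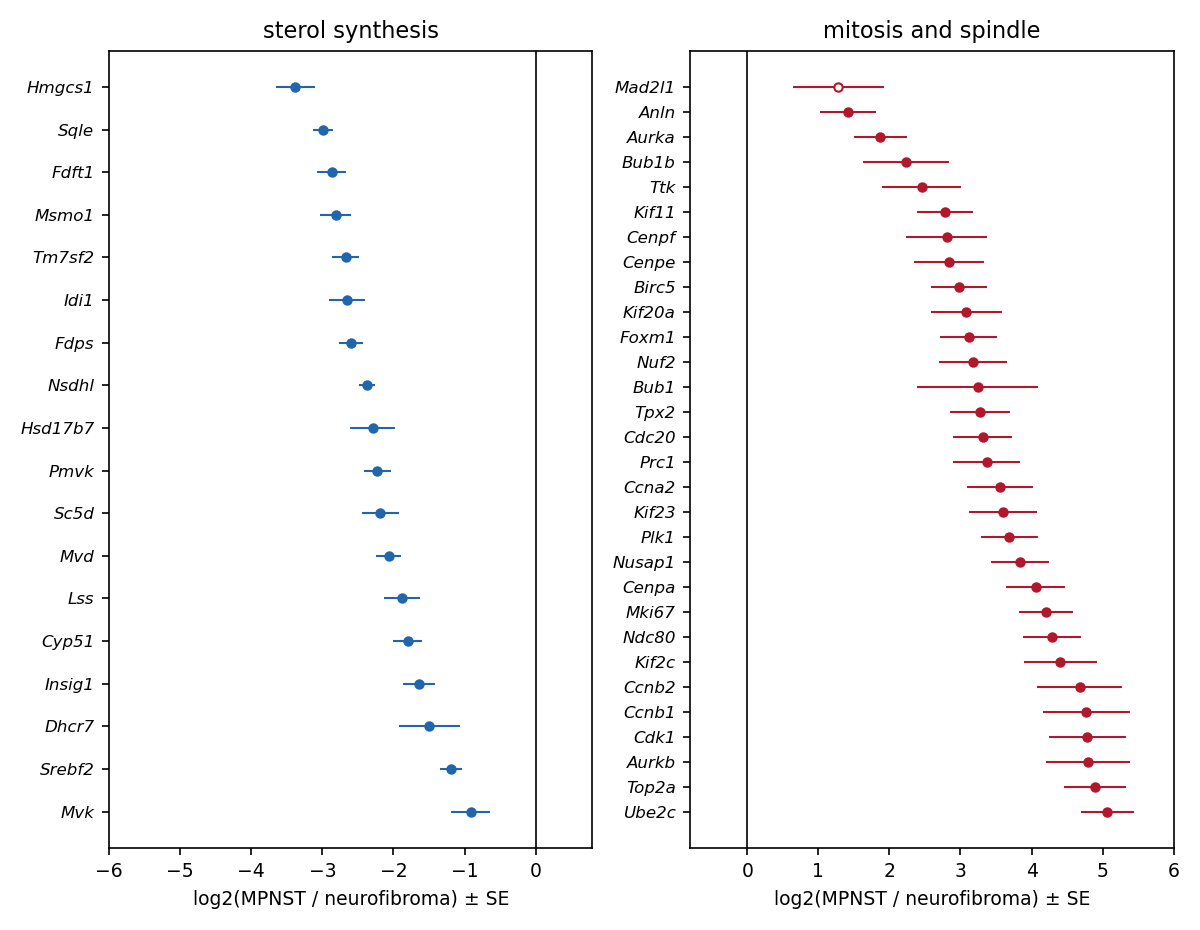
Log2 change between MPNST and neurofibroma with its standard error for 18 of the 21 genes of sterol synthesis (left) and for 30 of mitosis and the spindle (right); filled points passed the adjusted p threshold. The sterol genes shown lie below 0, from -0.91 for Mvk to -3.38 for Hmgcs1, and all mitosis genes lie above 0, with Mad2l1 as the open point.

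Of 24 Schwann cell lineage genes, 10 were called lower, 3 higher and 11 neither, with a median of -0.89. The lower count was 5 in the first column run and 6 with all 6 MPNST. Sox10, the master transcription factor of the lineage, had 161, 114, 5.31 and 248 CPM against 129, 163 and 257 CPM and was not called (-0.43, adjusted p = 0.611). In 3 of the 4 tumours this lineage marker was thus within or just below the neurofibroma range, and in MPNST 4 it was far below it. S100b, the calcium-binding protein used to mark Schwann cells, fell from 1331, 1487 and 1714 CPM to 77.5, 15.4, 4.21 and 15.8 CPM (-5.75, SE 0.79, adjusted p = 0.000145; -6.93 without MPNST 1). Fabp7, a fatty acid binding protein of glial precursors, fell by 5.86 (SE 0.69, adjusted p = 5.53e-05). Tfap2a, a neural crest transcription factor, rose from 1.77 to 3.70 CPM in neurofibroma to 13.1, 9.80, 88.1 and 32.3 CPM (3.59, SE 0.54, adjusted p = 0.000262; 2.74 without MPNST 4). MPNST 4 was lowest of the 4 tumours in 19 of the 24 genes.

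Of 18 compact myelin genes 17 were called lower, all without overlap (background 4426 of 17280 genes lower without overlap), with a median of -5.42. The other, Mpp6, a scaffold protein gene, was at 0.71 (adjusted p = 0.168) and was called higher without MPNST 1 (0.99, adjusted p = 0.0383). Prx, which encodes periaxin, had 53.7, 15.5, 10.9 and 7.75 CPM against 896, 1284 and 1568 CPM (-5.82, SE 0.63, adjusted p = 3.26e-05; -6.70 without MPNST 1). MPNST 1 had the highest tumour value in 15 of the 18 genes. With the first column run alone 11 of the 18 were called.

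Immune genes were higher in the MPNST, unevenly among tumours. Of 24 tested macrophage genes 20 were called higher and none lower (1 lower without MPNST 4), with a median of 2.88. The monocyte chemokine receptor gene Ccr2 rose from 2.81, 5.62 and 7.56 CPM to 172, 38.4, 153 and 316 CPM (4.92, SE 0.48, adjusted p = 1.62e-05). The list's level was 6.33, 4.43, 6.36 and 6.36 in MPNST and 3.35 to 4.08 in neurofibroma, and MPNST 3 was the lowest tumour in 21 of the 24 genes. All 11 genes of MHC class II presentation were called higher (median 3.59). Cd74, the invariant chain, had 2942, 277, 1107 and 2872 CPM against 104.6, 169.7 and 213 CPM (3.45, SE 0.53, adjusted p = 0.000309). In the second column run alone 7 of these 11 were called.

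Of 28 chemokine genes 23 passed the filter on low counts, and 18 of those were called higher and 2 lower. Genes that pass only through the MPNST must differ, so this count is a description. Ccl6 had 122, 49.7, 24.6 and 212 CPM against at most 2.34 CPM in neurofibroma (rise 6.16, SE 0.71, adjusted p = 4.64e-05; 5.55 without MPNST 5). MHC class I presentation rose in 10 of 14 genes, a count that fell to 3 without MPNST 1 and to 3 without MPNST 5, and was 2 and 3 in the 2 column runs. H2 genes have near-identical relatives, which makes their estimated counts uncertain. Of the checkpoint genes, Lag3 rose from 0.49, 0.946 and 1.55 CPM to 16.9, 4.54, 8.50 and 12.5 CPM (3.29, SE 0.40, adjusted p = 6.55e-05), and Cd274, which encodes PD-L1, was at 0.16 (adjusted p = 0.81). The counts of chemokines and T cell genes called higher were 9 and 7 in the second column run alone, and 11 and 10 with all 6 MPNST. The low-count filter was run anew in each of these fits, so a gene not called there may not have been tested.

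Lymphocyte genes had uneven values among the tumours. Of 22 T and NK cell genes 17 passed the filter on low counts, and 16 of those were called higher; genes that pass only through the MPNST must differ, so this count is a description. It was 15 without MPNST 1, and the list level was 4.42, 0.92, 1.78 and 3.06 in MPNST and 0.42 to 0.81 in neurofibroma. Cd3g, a T cell receptor subunit gene, had 42.7, 1.06, 1.47 and 11.7 CPM against 0.182, 0.464 and 0.904 CPM (4.66, SE 0.96, adjusted p = 0.00189; 3.08 without MPNST 1). Cd79b, a B cell receptor subunit gene, had 86.1, 0.439, 3.66 and 6.87 CPM against 0.178, 0.451 and 0.85 CPM (5.60, SE 1.22, adjusted p = 0.00267; 2.86 without MPNST 1 and not called in the second column run). The follicular B cell receptor gene Cr2, which did not pass the filter, had 346 CPM in MPNST 1 and at most 0.0898 CPM in the other 3. Of 18 B and plasma cell genes 9 passed the filter, and all 9 were highest in MPNST 1. Of these 7 were called higher, and 1 in the second column run. Without MPNST 1, 1 was called lower. The filter limits the B cell count as it does the T cell count, so it too is a description.

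Homeobox genes of the Hox clusters mark position along the body axis, and the trigeminal region lies in front of the domains where most are active. Of 37 Hox genes 9 passed the filter, 8 of them called higher and 1 lower. Genes that pass only through 1 group had to differ, so the count is a description. Hoxb4 had 27.2, 15.4, 4.54 and 22.2 CPM against 0.249, 0.283 and 0.459 CPM (5.77, SE 0.48, adjusted p = 5.3e-06), and Hoxb3 had 7.49, 3.19, 4.67 and 11.9 CPM against at most 0.0849 CPM (7.24, SE 0.60, adjusted p = 5.65e-06). Hoxd1, which is active in sensory neurons, fell from 15.02, 17.02 and 24.8 CPM to at most 0.135 CPM (-8.15, SE 0.59, adjusted p = 2.13e-06; -8.83 without MPNST 3). The sensory neuron list moved with it. The tumours differed in which genes they held: Hoxc8, which was not tested, had 29.4, 0.609, 0 and 13.3 CPM, and Hoxa9 had 0.925, 14.8, 0 and 1.75 CPM. MPNST 4 had the lowest Hox list level (0.63, against 1.28 to 1.77 in the other tumours and 0.23 to 0.29 in neurofibroma). Body site and malignancy cannot be told apart here. With all 6 MPNST 3 Hox genes were called higher. The low-count filter was run anew for that fit, so a Hox gene not called there may not have been tested. Of 12 genes of the repressive complex PRC2 and its partners, which silence Hox genes, 8 were called higher (5 in the second column run) and 1 lower. Eed, a core subunit gene, rose from 14.1, 15.9 and 18.1 CPM to 41.0, 34.5, 47.7 and 44.4 CPM (1.39, SE 0.12, adjusted p = 7.8e-06), and Aebp2, a cofactor gene, rose by 0.88 (SE 0.11, adjusted p = 6.1e-05). Suz12 was not called (0.10, adjusted p = 0.631).

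Skeletal muscle genes were high in 1 kept tumour. In MPNST 3 the alpha-actin gene Acta1 had 11430 CPM and in the other 3 tumours at most 2.03 CPM, and the 23 genes of the muscle list took 8.41% of that library's counts. Neb, the giant thin-filament protein nebulin, had 10.3, 3937, 4.40 and 3.48 CPM against 16.3, 23.8 and 100.3 CPM, the highest in neurofibroma 1. It was called higher at 4.99 (adjusted p = 0.0339) and turned to -2.63 (adjusted p = 0.0101) without MPNST 3. The call was also lost without any of neurofibromas 2 to 6 (adjusted p 0.0615 to 0.0624). Ryr1, the calcium release channel, was called higher at 6.10 (adjusted p = 0.0372) and was at -1.55 (adjusted p = 0.396) without it. Its call was lost as well without any of neurofibromas 2 to 6 (adjusted p 0.0641 to 0.069), and without neurofibroma 1 it was 9.02. Acta1 itself was not called (adjusted p = 0.0684) but was without neurofibroma 1 (adjusted p = 0.0116). Of 18 tested muscle genes 3 were called higher, 0 without MPNST 3 or without any of neurofibromas 2 to 6, 14 without neurofibroma 1, and 0 and 12 in the first and second column runs. Without MPNST 3, 2 were called lower. Without MPNST 3 the whole comparison had 11247 calls, of which 9693 were among the 10234; 541 calls were lost and 1554 gained.

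Nuclear genes of oxidative phosphorylation, which muscle uses heavily, moved with that library too. Of 29 genes 2 were called lower and none higher, and MPNST 3 had the highest tumour value in 28 of the 29. The list's level was 7.34 in MPNST 3, 6.34 to 6.40 in the other 3 tumours and 6.93 to 7.23 in neurofibroma. Neurofibroma 1, which also had a high muscle level, was at 7.17. The part of muscle in these values was not tested. Without MPNST 3, 25 of the 29 were called lower, and in the first column run 14 were. The lower count was also 19 with limma-voom, 8 with scaling by library totals only and 9 in a fit that included normal nerve. Ndufa4, a respiratory chain subunit gene, had 87.2, 197, 99.8 and 79.2 CPM against 224, 282 and 324 CPM (-1.22, SE 0.31, adjusted p = 0.00643), and Cox7a2 fell by 0.88 (adjusted p = 0.00216). Adipocyte markers followed MPNST 1, MPNST 5 and neurofibroma 1: Adipoq, the fat cell hormone adiponectin, had 64.8, 0.88, 0.248 and 46.6 CPM in MPNST and reached 71.2 CPM in neurofibroma (1.16, adjusted p = 0.65). Of 8 tested adipocyte genes 2 were called higher, 0 without MPNST 1, 6 without neurofibroma 1 and 1 without any other library but MPNST 4, and 0 and 7 in the first and second column runs.

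Leaving out the libraries high in Bpifa2 or Th changed the comparison as follows. All 6 MPNST gave 6948 calls, of which 6629 were also among the 10234 with 4 libraries. Calls made with 4 only numbered 3605, and 319 were made with 6 only. The low-count filter was run anew for each fit, so a gene called in 1 fit only may not have been tested in the other. The fitted biological coefficient of variation was 0.668 with 6 and 0.473 with 4. The count called higher went from 4176 to 5306 and the count called lower from 2772 to 4928. Mitosis (28 of 30 higher), collagens (14 of 20) and macrophage genes (19 of 24) were called in nearly the same numbers with all 6. These counts do not describe MPNST 2 and 6 themselves. Their mitosis levels were 1.15 and 6.40, against 1.39 to 1.84 in neurofibroma. Their collagen levels were 4.60 and 5.86 (neurofibroma 5.73 to 6.94), and their macrophage levels 3.60 and 3.26 (neurofibroma 3.35 to 4.08). Counts were smaller with all 6 for sensory neuron (21 of 30 lower), sterol (16 of 21 lower), TGF-beta and YAP (12 of 18 higher) and MHC class I genes (2 of 14 higher).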

How the data were processed

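Tumour and nerve RNA was extracted with RNeasy Plus Mini columns and 800 ng was made into stranded KAPA mRNA libraries with 10 PCR cycles, per the labels' protocols. The authors deposited estimated counts per gene for 51290 genes in 18 columns. Salmon 1.4.0, FastQC, DESeq2 and the build GRCm39 are named in the submitters' processing notes; which annotation release, Salmon settings and strand option were used is not given in the sources used here. Every column matched 1 sample, and no gene name was blank.

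The estimated counts were rounded to whole numbers and fitted with edgeR 4.0.16 (R 4.3.3; filterByExpr, TMM, quasi-likelihood test, Benjamini-Hochberg adjustment over all genes tested, threshold 0.05). The fit reported held the 4 kept MPNST and the 6 neurofibroma libraries. Alternatives changed the scaling, the low-count filter, the threshold and the tool (edgeR with glmTreat against a log2 change of 1; DESeq2 1.42.0; limma 3.58.1 with voom), used all 6 MPNST, or left out 1 library in turn. Calls with a required minimum log2 change of 1 and fits by column run were added after the data had been seen. The fits were tested on simulated counts that had the same spread in both groups and few changed genes. The unequal spread and the many calls of these data were therefore not covered by that test. Total counts of 13885900 to 23292124 in the 10 libraries set the precision; 3 counts over a group served as the floor for genes at 0, which covers counting error only.

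The libraries, gene lists and genes were chosen with earlier results of these data known. By the naming rule these were Postn, Nf1 and Cdkn2a; the 10 called genes that rose most and the 10 that fell most among those of at least 10 CPM without overlap, and the 2 called members with the smallest p in each direction of each of 56 lists (1012 distinct genes). Other genes were named after their values were seen, and some genes of the lists are counted but not reported by name here. Of the list genes 6 were not found in the table.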

Additional observations from a re-analysis of the deposited data

Results flagged for a closer look

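In 37 of 282 checks over the genes and lists named here, the highest or lowest library of a group lay far from the others. Chance alone flags about 1 in 20 groups of normally distributed values. Gene checks used CPM without logs, so that rate need not hold for them, and the lists and genes are not independent. Skeletal muscle accounts for several. MPNST 3 stood apart in Acta1 (11430 CPM), Neb (3937 CPM), Ryr1 (2105 CPM) and the muscle list level (9.55), and neurofibroma 1 in Acta1 (161.6 CPM), Neb (100.3 CPM), Ryr1 (45.8 CPM) and the list level (6.07). MPNST 3 also stood apart in the oxidative phosphorylation level (7.34) and Cox7a2 (87.4 CPM), in a low macrophage level (4.43) and in Trpm8 (0.0755 CPM, at 0 in the other tumours).

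MPNST 4 stood apart in Cdkn2a (692 CPM), Cdkn2b (299 CPM), Dnm3os (393 CPM), Pdgfra (1497 CPM), Sema3a (302 CPM) and Spry4 (87.0 CPM). MPNST 1 stood apart in Cd79b (86.1 CPM), Fasn (704 CPM), Scd2 (636 CPM), Prx (53.7 CPM), S100b (77.5 CPM), Rasal1 (12.2 CPM), Tgfa (3.61 CPM) and Tnfsf18 (33.5 CPM). Among the neurofibromas, library 1 stood apart in Adipoq (71.2 CPM), the adipocyte level (5.59), Fasn (586 CPM), Scd1 (1198 CPM), Foxm1 (3.34 CPM) and Sema3a (1.28 CPM). Library 2 did so in Cd274 (25.4 CPM) and Cytip (1.74 CPM), library 3 in Dhcr7 (98.5 CPM), library 5 in a low ERK output level (4.28) and library 6 in Insig1 (159 CPM).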

How the results depend on the processing

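The count of 10234 called genes was within 1.5 times under every alternative run except 2: it was 5025 against a minimum log2 change of 1 (2259 higher, 2766 lower) and 6576 in the first column run (3122 higher). With all 6 MPNST, 2772 genes were called lower. Leaving out 1 library at a time gave 9386 to 11247 calls, 4990 to 5840 higher and 4251 to 5525 lower. Leaving out neurofibroma 1 moved Neb to 5.82 and Ryr1 to 9.02. Neb reversed to -1.18 with limma-voom, -1.97 without MPNST 3 and neurofibroma 1, -2.83 in the first column run and -2.63 without MPNST 3. Ryr1 reversed to -3.04 in the first column run and -1.55 without MPNST 3. The cause of the other shifts was not tested. DESeq2 called 12406 genes, 9934 of them shared. Upper-quartile scaling moved the median of all genes to 0.189, all 6 MPNST to 0.223. No paired analysis was possible because the replicate numbers only name libraries, the MPNST and the neurofibromas being different samples of different series. Precision is limited by 4 tumours whose biological coefficient of variation was 0.673, at depths of at least 13885900 counts.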

Other observations

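Gene lists outside the comparisons above are given as counts only. Of 22 endothelial genes 16 were called higher in MPNST and 4 lower (median log2 change 1.62), and the higher count was 4 in the first column run alone. Of 17 tested complement genes 12 were called higher and 1 lower (median 2.57). The interferon response list had 10 of 25 called higher and none lower (median 0.62), and 5 and 3 higher in the first and second column runs. The hypoxia response list had 5 of 17 called higher (3 in either column run) and 2 lower (5 without MPNST 4). For glycolysis the counts were 2 higher and 7 lower of 18, with 15 lower by limma-voom. The shares over all genes were 30.7% higher and 28.5% lower.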
